A study of Mus musculus with 6 samples.

Results

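The 10 genes described here encode ligands and receptors by which tumor and myeloid cells restrain or stimulate lymphocytes and phagocytes: Cd274, Pdcd1lg2, Cd276, Vtcn1, Lgals9, Cd47, Cd80, Cd86, Cd40 and Tnfsf9. They were taken by symbol from the 35027 genes in the table, and all 10 were present and passed the filter on low values. RNA was sequenced from cells sorted from mouse thyroid tumors by the fluorescent protein Kate, with 3 YAP libraries (replicates 1, 2 and 3) and 3 BrafYAP libraries (replicates 1, 2 and 6, titled BRAFYAP in the labels). YAP mice expressed YAPS127A, a constitutively nuclear form of the HIPPO pathway effector YAP, from a tetO transgene that doxycycline (dox) switched on, through RIK-rtTA, in thyroid follicular cells. Mice of the BrafYAP group had these alleles too and also expressed BrafV600E, an activated form of the MAPK kinase Braf, from the endogenous locus in those cells. Mice of both genotypes were given dox in their chow from 4 weeks of age, and neither group lacks mutant YAP, so the comparison addresses what mutant Braf adds to it. By the labels each YAP library pooled 3 tumors and each BrafYAP library held 1 tumor, so pooling and genotype cannot be told apart. The study's methods instead describe a single tumor per replicate. For the start of dox they give 4 weeks of age, as the labels do, while its results text gives a later age. The labels were followed here.

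T cells that recognise antigen receive further signals from ligands on the cell that presents it. CD80 and CD86 bind the activating receptor CD28 and the inhibitory receptor CTLA-4, the PD-1 ligands PD-L1 and PD-L2 restrain activated T cells, and TNF superfamily pairs such as CD40 with its ligand and 4-1BB with 4-1BB ligand reinforce activation. CD47 acts on phagocytes, where its binding to SIRPα restrains engulfment. Macrophages and dendritic cells express many of these ligands, and interferons and NF-kB induce several of them, PD-L1, CD40 and galectin-9 among them. Epithelial tumor cells can express PD-L1, B7-H3, B7-H4, CD40 and CD47 as well.

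Reads were estimated from the deposited TPM by undoing the division by gene length, and libraries held 26.2 to 36.9 M estimated reads. Values below are scaled reads, which are estimated reads on the authors' scaling between libraries, so they compare libraries within a gene. Log2 fold changes are BrafYAP minus YAP on log2(scaled reads + 1), from limma across the 16832 genes with a mean of at least 10 scaled reads, and adjusted p-values are Benjamini-Hochberg values over those genes. BrafYAP replicate 6 stood apart from the rest: Pearson's r across genes was 0.732 to 0.837 between it and the other 5 libraries. That r was 0.968 between BrafYAP replicates 1 and 2 and 0.908 to 0.938 among YAP libraries. Between YAP libraries and BrafYAP replicates 1 and 2 it was 0.833 to 0.926, overlapping the range among YAP libraries. No pair of libraries agreed within sampling noise, so each was counted once. The libraries of a group came from different tumors by their labels, and p-values measure only the spread between these samples. By the labels the spread among YAP libraries is between pools of 3 tumors, and that among BrafYAP libraries is between single tumors. Limma used a common variance for both groups, so SDs and p-values do not measure the spread between single tumors in YAP.

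None of the 10 genes passed an adjusted p of 0.05 in limma, nor did any other gene tested (0 of 16832, or 0%), and limma with voom weights also called 0. At an unadjusted p under 0.05, 2 of the 10 were higher in BrafYAP (Cd47 and Tnfsf9), beside 9.68% of all genes tested, and 5 were lower (Cd40, Cd86, Vtcn1, Cd274 and Lgals9), beside 10.5%. The same 2 genes had all BrafYAP libraries above all YAP libraries, where 11.7% of all genes did. Cd40 and Vtcn1 had all BrafYAP libraries below all YAP libraries, where 17.1% of all genes did. The median log2 fold change of the 10 genes was -0.84, and that of all genes tested was -0.12. The plot of scaled reads by library shows the values behind these counts.

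**Figure D1:**
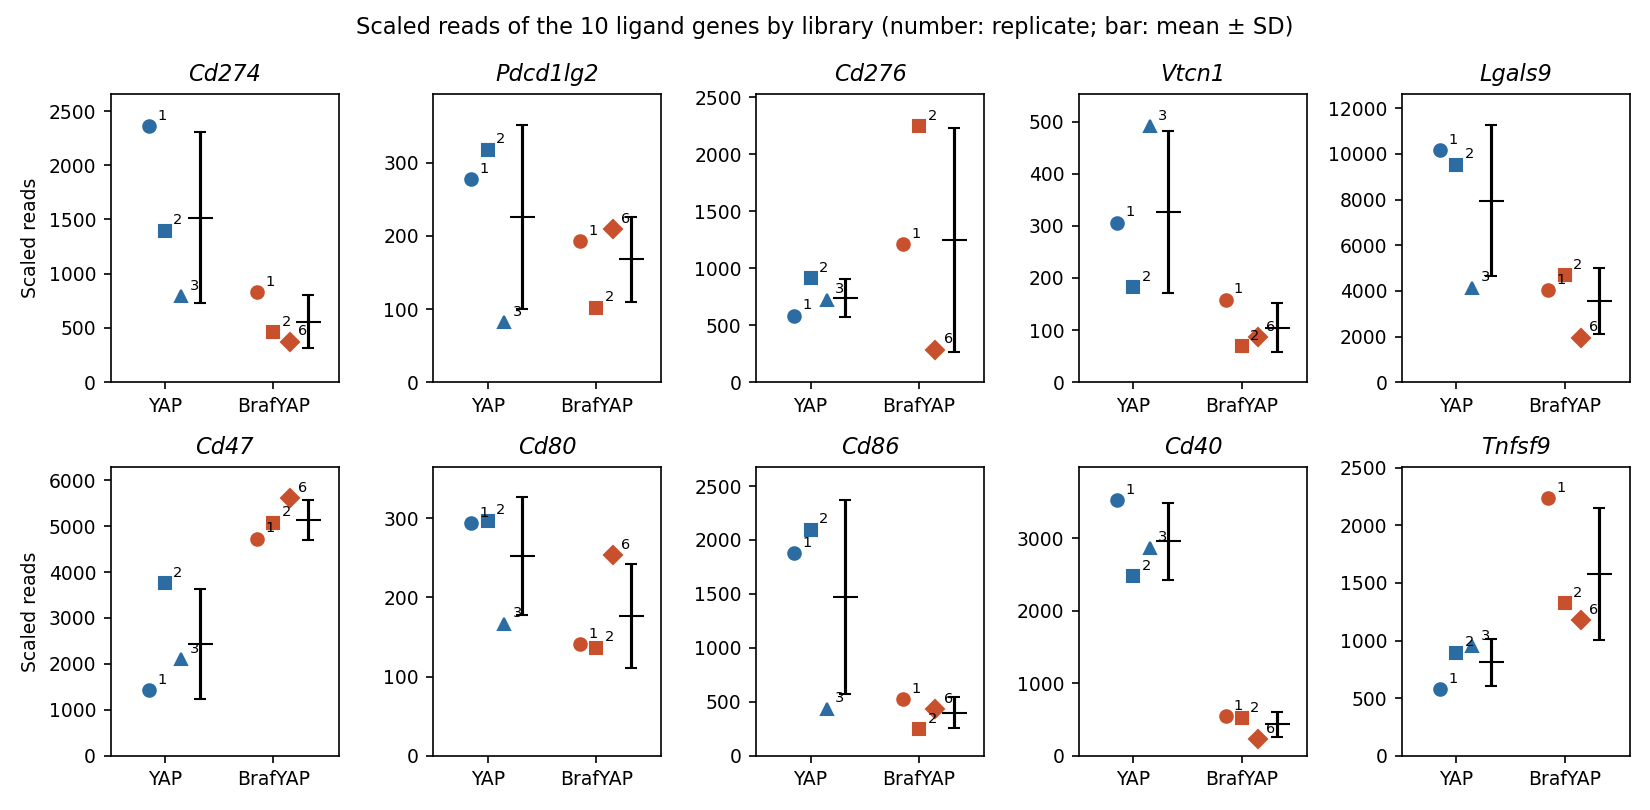
Scaled reads (linear axis from 0, its own range for each gene) in the 3 YAP (blue) and 3 BrafYAP (red) libraries, each point a library with its replicate number, and the bar beside each group its mean ± SD. The groups of Cd40, Vtcn1, Cd47 and Tnfsf9 do not overlap, and BrafYAP replicate 6 holds the lowest Cd276 value.

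Cd40 (ENSMUSG00000017652.16, mm10 chr2:165055627-165072948, + strand) encodes a receptor of antigen-presenting and epithelial cells through which CD40 ligand on T cells activates NF-kB. It gave 3525, 2480 and 2871 scaled reads in YAP replicates 1, 2 and 3, and 551, 513 and 230.0 in BrafYAP replicates 1, 2 and 6. The lowest YAP library was thus well above the highest BrafYAP library, and the spread within each group was small beside the gap. The YAP mean was 2959 ± 528 (SD, n = 3) and the BrafYAP mean 431 ± 175 (SD, n = 3). In limma, on log2(scaled reads + 1), the log2 fold change was -2.86 (SE 0.40), or 7.26-fold lower in BrafYAP (95% confidence interval 3.79 to 13.9), with an adjusted p of 0.0589, just above the threshold. Over the 18 alternative settings the adjusted p of Cd40 ranged from 0.0013 to 0.248 and its direction held in all 18.

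The adjusted p of Cd40 was under 0.05 in 5 of those settings, each with its own share of called genes. It was 0.0468 on the deposited TPM + 1, where limma called 0.246% of genes tested, and 0.0474 on TPM recomputed with the exonic length, where it called 0.427%. With quantile normalization it was 0.0362, beside 0.368% of genes called. Without BrafYAP replicate 6 it was 0.0346, beside 0.856%, and the log2 fold change was -2.46. With limma's array weights, which give each library a weight for how far it departs from the fit, it was 0.0013, beside 27.6% of all genes called. In that weighted fit Cd47, Vtcn1 and Tnfsf9 also had adjusted p-values under 0.05, at 0.0081, 0.0127 and 0.0271, and YAP replicate 3 carried the highest weight (4.81) and BrafYAP replicate 6 the lowest (0.22).

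CD40 signals through TRAF adaptors and the kinase NIK to NF-kB. Of the 8 genes of that pathway tested (Traf1, Traf2, Traf3, Traf5, Traf6, Map3k14, Nfkb2 and Relb), 0 passed an adjusted p of 0.05, while 2 were higher in BrafYAP at an unadjusted p under 0.05 and 1 was lower, beside 9.68% and 10.5% of all genes. Map3k14, which encodes NIK, gave 933, 1191 and 1873 scaled reads in YAP and 669, 666 and 229 in BrafYAP (log2 fold change -1.45, adjusted p = 0.181 in limma). Relb, an NF-kB subunit downstream of NIK, lay the other way, with 179, 657 and 539 in YAP and 955, 1145 and 1735 in BrafYAP (log2 fold change 1.63, adjusted p = 0.164). Traf6 gave 246, 658 and 366 in YAP and 1013, 896 and 626 in BrafYAP, where 1 BrafYAP value lay within the YAP range. Cd40lg, the gene of the CD40 ligand, was at 0 in every library.

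Tnfsf9 (ENSMUSG00000035678.8, mm10 chr17:57105325-57107757, + strand) encodes 4-1BB ligand, which costimulates T cells through 4-1BB. It gave 581, 895 and 953 scaled reads in YAP and 2239, 1324 and 1177 in BrafYAP. The lowest BrafYAP value exceeded the highest YAP value, with BrafYAP replicate 1 the highest. Its log2 fold change was 0.94 (SE 0.36, 95% confidence interval 0.09 to 1.79), or 1.92-fold, with an adjusted p of 0.215 in limma. A lincRNA, Gm11110, overlaps Tnfsf9 on the opposite strand, and no source states whether counting used the strand, so their reads cannot be told apart. Gm11110 itself was given at most 138 scaled reads in any library. The receptor gene Tnfrsf9, which encodes 4-1BB, gave 9325, 5563 and 4750 in YAP and 7936, 3644 and 14317 in BrafYAP, and the groups overlapped (log2 fold change 0.25, adjusted p = 0.812).

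Cd47 (ENSMUSG00000055447.19, mm10 chr16:49800533-49915010, + strand) encodes the SIRPα ligand that restrains engulfment by phagocytes. It gave 1421, 3758 and 2110 scaled reads in YAP and 4730, 5079 and 5605 in BrafYAP. BrafYAP libraries lay close together and above the highest YAP library, while YAP replicate 2 was nearest to them. In limma the log2 fold change was 1.19 (SE 0.39, 95% confidence interval 0.29 to 2.10), or 2.29-fold, with an adjusted p of 0.161. Its value without 1 library ran from 0.86 without YAP replicate 1 to 1.57 without YAP replicate 2. Thbs1, whose product thrombospondin also binds CD47, gave 171475, 99009 and 127551 in YAP and 89789, 118362 and 7839 in BrafYAP, the last in replicate 6. Sirpa, the gene of the CD47 receptor, gave 1817 to 7449 in YAP and 898 to 3297 in BrafYAP, overlapping (log2 fold change -0.62, adjusted p = 0.632).

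**Figure D2:**
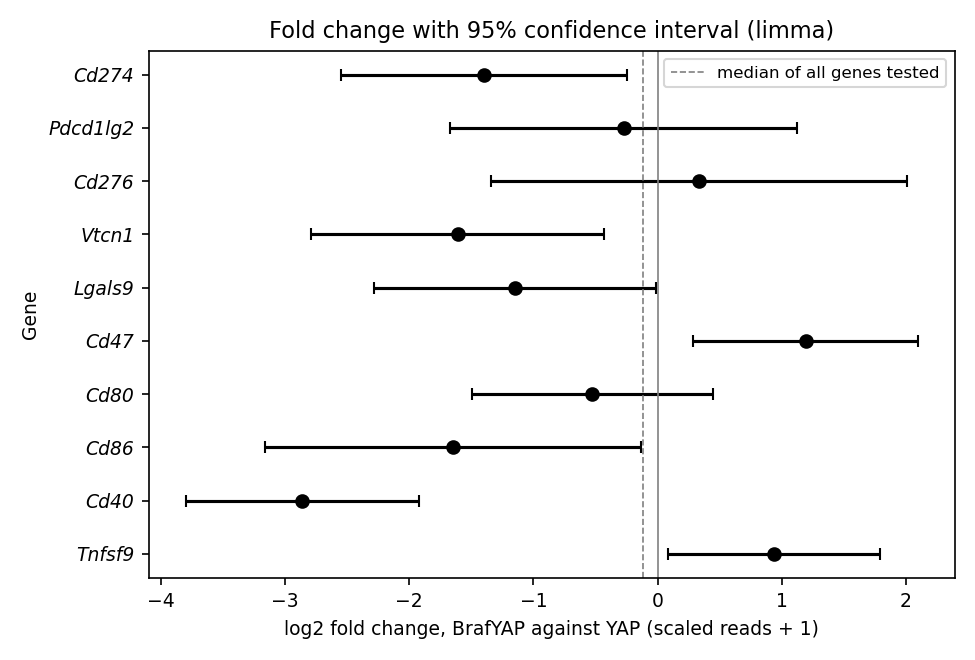
Log2 fold change of each gene (x axis, BrafYAP against YAP on log2(scaled reads + 1)) with its 95% confidence interval from limma, all 6 libraries in the fit. The intervals of Cd47 and Tnfsf9 lie above 0, those of Cd274, Vtcn1, Lgals9, Cd86 and Cd40 below it, and those of Pdcd1lg2, Cd276 and Cd80 cross it; none of the 10 passed the adjusted threshold.

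Vtcn1 (ENSMUSG00000051076.8, mm10 chr3:100825459-100896922, + strand) encodes B7-H4, an inhibitory ligand of epithelial tumors and some macrophages whose receptor is not settled. It gave 306, 182 and 491 scaled reads in YAP and 158, 69.1 and 86.1 in BrafYAP. The groups did not overlap, but YAP replicate 2 and BrafYAP replicate 1 were close. The log2 fold change was -1.61 (SE 0.50, 95% confidence interval -2.79 to -0.43), or 3.05-fold lower in BrafYAP, with an adjusted p of 0.152 in limma. Its highest value was in YAP replicate 3, which was the lowest YAP library for Cd274, Cd86 and Lgals9.

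Cd274 (ENSMUSG00000016496.7, mm10 chr19:29367455-29388095, + strand) encodes PD-L1 and Pdcd1lg2 (ENSMUSG00000016498.10, mm10 chr19:29410919-29471161, + strand) encodes PD-L2, both ligands of PD-1 and neighbours on the chromosome. Cd274 gave 2362, 1396 and 795 scaled reads in YAP and 833, 461 and 374 in BrafYAP. The groups overlapped because YAP replicate 3 lay just below BrafYAP replicate 1. The log2 fold change of Cd274 was -1.40 (SE 0.49, 95% confidence interval -2.55 to -0.25), or 2.63-fold lower in BrafYAP, with an adjusted p of 0.183 in limma. Leaving out 1 library gave -1.79 without YAP replicate 3 to -1.01 without YAP replicate 1, and the weighted fit gave -0.48.

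Pdcd1lg2 gave 278, 318 and 82.4 scaled reads in YAP and 193, 102 and 210 in BrafYAP. The groups overlapped, and the log2 fold change of -0.27 (SE 0.60) had a 95% confidence interval of -1.67 to 1.13, so neither a fall nor a rise of that size could be told from the spread. Antisense genes overlap both loci, AC119228.1 at Cd274 and A930007I19Rik at Pdcd1lg2, and the last reached 131 scaled reads in one library. Pdcd1, which encodes the receptor PD-1, gave 50.5 to 167 in YAP and 0 to 157 in BrafYAP, where replicate 6 held the highest value and replicate 2 the lowest.

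Cd276 (ENSMUSG00000035914.11, mm10 chr9:58524298-58555437, - strand) encodes B7-H3, a B7 family ligand of many solid tumors with no agreed receptor. It gave 584, 911 and 724 scaled reads in YAP and 1210, 2247 and 285 in BrafYAP. BrafYAP held both the highest value and the lowest, and the log2 fold change was 0.34 (SE 0.71, 95% confidence interval -1.34 to 2.01). The direction rested on single libraries: the log2 fold change was 1.18 without BrafYAP replicate 6 and -0.31 without BrafYAP replicate 2.

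Lgals9 (ENSMUSG00000001123.15, mm10 chr11:78962974-78984946, - strand) encodes galectin-9, a secreted lectin that binds the T cell receptor TIM-3. It gave 10150, 9530 and 4140 scaled reads in YAP and 4032, 4694 and 1953 in BrafYAP. YAP replicates 1 and 2 were the high libraries, YAP replicate 3 lay among the BrafYAP values, and BrafYAP replicate 6 was the lowest. The log2 fold change was -1.15 (SE 0.48, 95% confidence interval -2.28 to -0.01), or 2.21-fold lower in BrafYAP, with an adjusted p of 0.245 in limma. It was -0.76 without BrafYAP replicate 6 and -0.21 in the weighted fit. Havcr2, which encodes TIM-3 and is also expressed by macrophages, gave 844, 973 and 260 in YAP and 113, 90.3 and 107 in BrafYAP, without overlap (log2 fold change -2.52, adjusted p = 0.0927).

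Cd80 (ENSMUSG00000075122.5, mm10 chr16:38455561-38496335, + strand) and Cd86 (ENSMUSG00000022901.13, mm10 chr16:36603869-36666081, - strand) encode the paired ligands of CD28 and CTLA-4. Cd86 gave 1878, 2096 and 436 scaled reads in YAP and 525, 244 and 432 in BrafYAP. YAP replicate 3 again lay within the BrafYAP range. The log2 fold change of Cd86 was -1.65 (SE 0.65, 95% confidence interval -3.17 to -0.13), or 3.14-fold lower, with an adjusted p of 0.219 in limma, and it ran from -2.38 without YAP replicate 3 to -1.25 without YAP replicate 2. The weighted fit gave -0.50. Cd80 was the lower of the pair, with 294, 297 and 167 in YAP and 141, 137 and 253 in BrafYAP, and its groups overlapped (log2 fold change -0.53, SE 0.41, adjusted p = 0.497).

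TPM recomputed with the exonic length put the genes on one scale for comparing levels between them, provided that reads in introns were not counted. No source states whether they were. If so, genes with long introns stand too high on it, and Cd47 spans 114 kb against 2.43 kb for Tnfsf9. On this scale Lgals9 was the highest of the 10 in every library, at 176 to 408 in YAP and 81.0 to 200.5 in BrafYAP. By group mean the next in YAP was Cd40 at 75.3 ± 14.2 (SD, n = 3), then Tnfsf9 at 54.5 ± 14.5, Cd274 at 36.0 ± 18.4, Cd86 at 34.2 ± 20.3 and Cd47 at 33.3 ± 15.4, and from Cd40 on, neighbours in that order overlapped in their library values. In BrafYAP the order was Tnfsf9 at 110 ± 39.5, Cd47 at 73.4 ± 5.996, Cd276 at 30.8 ± 24.6, Cd274 at 13.8 ± 5.97, Cd40 at 11.4 ± 4.69 and Cd86 at 9.77 ± 3.40. Tnfsf9 was above Cd47 in each BrafYAP library and Cd47 above Cd276. Cd40 was thus above Tnfsf9 and Cd47 by mean in YAP and below both in every BrafYAP library. Pdcd1lg2, Vtcn1 and Cd80 were low in both groups, with means of 5.86 to 10.9 in YAP and 3.57 to 7.66 in BrafYAP.

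The receptors of these ligands and the other ligands of the same kind were counted from fixed lists. Of 9 genes on the receptor list 8 were tested. At an unadjusted p under 0.05 none was higher (9.68% of all genes were) and 2 were lower (10.5% were), Havcr2 (above) and Sirpb1a. Sirpb1a was listed as a relative of Sirpa, and binding of its product to CD47 is not claimed here. This gene belongs to a family of closely similar genes between which reads may be divided, and its value is uncertain. Of 20 other ligands 15 were tested, and none was higher and 3 were lower at that p. Icosl, the ligand of the T cell receptor ICOS, gave 309, 499 and 423 in YAP and 156, 82.4 and 87.0 in BrafYAP (log2 fold change -1.94, adjusted p = 0.0889 in limma). Tnfrsf14, which encodes HVEM, gave 169, 72.1 and 51.5 against 4.43, 11.8 and 15.98 (log2 fold change -3.04, adjusted p = 0.103). Cd48, the ligand of CD244 and a gene of most leukocytes, gave 1072, 1066 and 529 against 247, 160.1 and 172 (log2 fold change -2.15, adjusted p = 0.0818). In each of these 3 genes all BrafYAP libraries lay below all YAP libraries, and none passed the adjusted threshold.

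All 16 genes of a list of regulators of Cd274 were tested, with a median log2 fold change of 0.17. At an unadjusted p under 0.05, 3 were higher and 4 lower in BrafYAP, beside 9.68% and 10.5% of all genes. Interferon receptors signal through Jak1, and the factor Irf1, which interferon induces, drives transcription of Cd274. Irf1 gave 5052, 9377 and 5695 in YAP and 2807, 2698 and 3268 in BrafYAP (log2 fold change -1.15, adjusted p = 0.126 in limma). Its groups did not overlap, with BrafYAP below, nor did those of Irf2 (log2 fold change -1.13) and Nfkb1, an NF-kB subunit (-1.41). The upstream genes lay the other way, with a log2 fold change of 1.45 for the receptor gene Ifngr2 and 1.007 for Jak1, both overlapping. Jun, an AP-1 subunit, gave 583, 5288 and 1478 in YAP and 6897, 10900 and 23641 in BrafYAP (log2 fold change 2.87, adjusted p = 0.133), without overlap.

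The sorted cells were checked against marker lists. The summed level of 6 epithelial markers was 147481 to 423401 scaled reads in YAP and 176100 to 397168 in BrafYAP, overlapping. The 8 thyroid follicular markers summed to 13971 to 32110 in YAP and 7523 to 28934 in BrafYAP, also overlapping, with a median log2 fold change of -1.43. Their mean log2 level was 7.31 to 8.13 in YAP, 4.94 and 4.20 in BrafYAP replicates 1 and 2, and 10.00 in BrafYAP replicate 6, so the BrafYAP libraries lay on both sides of YAP. Of these, Pax8, the thyroid lineage factor, gave 5188 to 14662 over the 6 libraries, whereas Tshr was at 0 in BrafYAP replicates 1 and 2 and gave 492 in replicate 6. Macrophage markers were abundant in both groups, and the sum of 12 of them was 232309 to 759972 in YAP and 60218 to 224214 in BrafYAP, without overlap. All 12 had a log2 fold change below 0 (from -2.89 for C1qa to -1.11 for Mrc1, median -1.94), and 11 were lower at an unadjusted p under 0.05, where 10.5% of all genes were. In bulk samples, fewer cells of a type and less RNA per cell cannot be told apart. The sum of 12 interferon-stimulated genes was 31080 to 60322 in YAP and 4849 to 13277 in BrafYAP, again without overlap, with a median log2 fold change of -3.14 and 11 of 12 lower at an unadjusted p under 0.05. The part of either list in the lower Cd40, Cd86, Cd274, Lgals9 and Vtcn1 values was not tested.

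The sum of 6 B cell markers was 51.4 to 150 in YAP and 41.6 to 115 in BrafYAP, with Pax5 at 0 in every library. The sum of 8 T cell markers was 186 to 532 in YAP and 254 to 293 in BrafYAP, and that of 4 NK cell markers was 62.9 to 223 and 8.97 to 293. Of 8 dendritic cell markers the sum did not overlap, at 4552 to 11125 in YAP and 2932 to 3895 in BrafYAP, and most of it was Itgax, a gene that macrophages also express. Their mean log2 level did overlap, at 5.89 to 6.78 in YAP, 5.07 and 5.05 in BrafYAP replicates 1 and 2, and 7.04 in BrafYAP replicate 6. The median log2 fold change of these markers was -0.28. Ccr7, a gene of mature dendritic cells, was highest in BrafYAP replicate 6, at 1280 against 69.1 to 283 in the other 5 libraries. The 5 neutrophil markers summed to 174 to 592 in YAP and 47.9 to 116 in BrafYAP, the 6 endothelial markers to 383 to 3461 and 175 to 1961, and the 7 fibroblast markers to 14290 to 28590 and 11578 to 28233. At an unadjusted p under 0.05, 1 neutrophil, 1 dendritic and 1 T cell marker were lower, 2 fibroblast markers were higher and 1 was lower, and 1 epithelial marker was higher, while no endothelial, NK cell, B cell or thyroid follicular marker tested passed it.

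**Figure D3:**
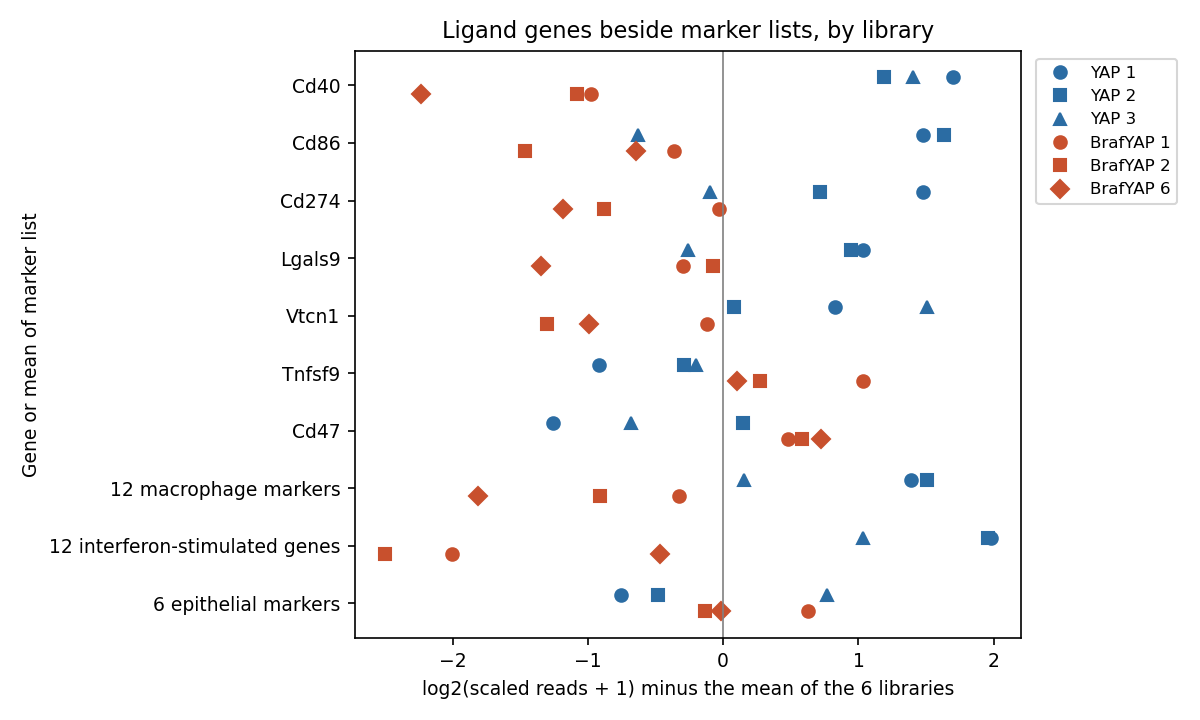
Log2(scaled reads + 1) minus the mean of the 6 libraries (x axis) for 7 of the genes and for the mean of 3 marker lists, with YAP libraries in blue and BrafYAP libraries in red. YAP replicate 3 (triangle) lies among the BrafYAP points for Cd86, Cd274 and Lgals9 but with the other YAP points for Cd40, Vtcn1 and the interferon-stimulated genes.

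Of all pairs of a YAP and a BrafYAP library, YAP replicate 3 and BrafYAP replicate 1 were closest in the mean level of the 12 macrophage markers, and this pair was chosen after those values were seen. Their values compare 2 libraries, not the genotypes, and carry no test. The ratio of YAP replicate 3 to BrafYAP replicate 1 had a median of 1.31 over the macrophage markers, running from 0.651 for Itgam to 2.73 for Ptprc. It was near 1 for the ligand genes Cd274 (0.954), Lgals9 (1.03), Cd86 (0.830) and Cd80 (1.18). For Cd40 it was 5.21 and for Vtcn1 3.09, where YAP replicate 3 was the highest YAP library for Vtcn1. Interferon-stimulated genes also differed in that pair, by a median ratio of 6.42. Cd47, Pdcd1lg2, Tnfsf9 and Cd276 were 2.24-fold, 2.32-fold, 2.35-fold and 1.67-fold higher in BrafYAP replicate 1 than in YAP replicate 3. The part of macrophage content in any of these values was not tested.

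Promoters of 7 of the 10 genes were found in the RefSeq table for GRCm38.p6 (not Cd40, Cd86 or Tnfsf9), each covering 250 bases before to 50 after the transcription start. They were searched on both strands for an interferon response element core (ISRE core), a GAS element (TTCNNNGAA), an AP-1 site (TGANTCA), a TEAD site (GGAATG) and an NF-kB site. The ISRE core, 2 copies of TTTC with a pair of any bases between them, was in 3.44% of the 32851 promoters of the table and in 1 of these 7, that of Lgals9, at positions -55 and 16 from the start. The AP-1 letters were in 7.81% of promoters and in those of Cd80 (-42) and Vtcn1 (2). GAS (8.30%), TEAD (14.7%) and NF-kB (1.47%) letters were in none of the 7. The 100 bases before the start are shown for Lgals9 (chr11:78984925-78985024, - strand), with the ISRE core in capitals, and for Cd274 (chr19:29367338-29367437, + strand), which holds none of these letters, because both genes are known interferon targets. A match of letters is a description and not a binding site.
Lgals9: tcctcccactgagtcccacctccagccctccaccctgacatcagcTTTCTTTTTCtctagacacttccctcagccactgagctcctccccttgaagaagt
Cd274: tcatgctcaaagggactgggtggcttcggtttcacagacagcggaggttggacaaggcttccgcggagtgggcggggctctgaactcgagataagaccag

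Leaving out 1 library at a time left the direction of 8 of the 10 genes the same in all 6 fits, the exceptions being Pdcd1lg2 and Cd276. Without BrafYAP replicate 6, the library that stood apart, the log2 fold change was -2.46 for Cd40, -1.15 for Cd274, -1.52 for Vtcn1, 1.13 for Cd47 and 1.12 for Tnfsf9, with 1 gene called at an adjusted p under 0.05 (Cd40), 3 higher (9.43% of all genes) and 2 lower (11.5%) at an unadjusted p under 0.05, and 6 with non-overlapping groups in either direction, where 43.8% of all genes had them. Without YAP replicate 3, 9 of the 10 genes had non-overlapping groups, where 35.3% of all genes did, against 4 of the 10 and 28.7% of all genes with all 6 libraries, the change coming from genes in which that library lay within or below the BrafYAP values.

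**Figure D4:**
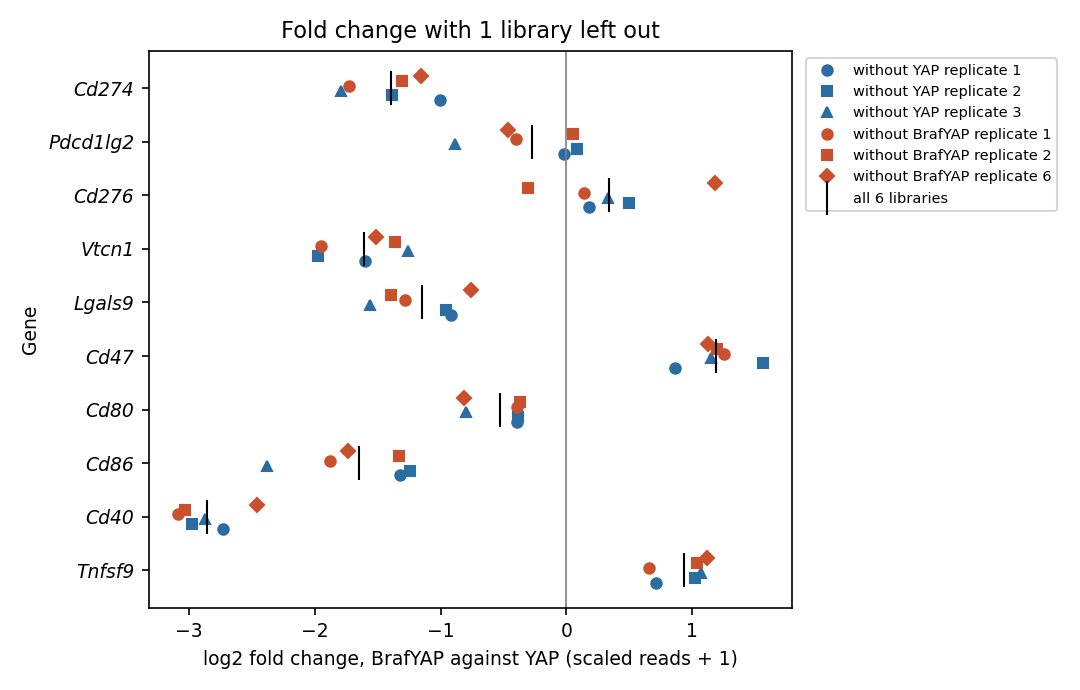
Log2 fold change of each gene (x axis, BrafYAP against YAP on log2(scaled reads + 1)) with 1 library left out, colored by the group of that library, beside the value with all 6 libraries (bar). Cd40 stays between -3.09 and -2.46, and Pdcd1lg2 and Cd276 cross 0.

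Pearson's r of log2(scaled reads + 1) with Cd274 over the 6 libraries, which share 2 groups and are few, was highest for Sec23b (0.997), Ttc23 (0.992) and Ap5s1 (0.989) among 12106 genes with a mean of at least 100 scaled reads, of which 117 were above 0.95. These 3 genes followed the order of Cd274 over a far smaller range, from 5718 to 3086 for Sec23b against 2362 to 374 for Cd274. Among the other 9 ligand genes r with Cd274 was 0.890 for Lgals9, 0.880 for Cd86, 0.848 for Cd40, 0.659 for Vtcn1, 0.539 for Pdcd1lg2, 0.522 for Cd80, -0.02 for Cd276, -0.60 for Tnfsf9 and -0.78 for Cd47. These are descriptions over 6 libraries.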

How the data were processed

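Amplified RNA (SMART-Seq kit) of sorted Kate-positive tumor cells was sequenced in 3 YAP and 3 BrafYAP libraries, grouped by their titles. The labels give no batch. Per the labels and the methods, the authors used bcl2fastq 2.2, aligned reads to mm10 with STAR 2.6.1d, quantified them in Partek (E/M model, Ensembl release 95) and deposited TPM with 0.0001 added. Every column had a sample (0 without).

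To find the length behind the deposited TPM, values under 200 reads were multiplied by the GENCODE M21 genomic span or exonic length. With the span, 71.7 to 76.1% came within 0.05 of a whole read, and with the exonic length 22.4 to 25.1%. Scaled reads are therefore (TPM - 0.0001) × span, put on a read scale, for the 34640 of 35027 genes with a symbol at 1 locus, and each column's deposited total was 181218. Because TPM is not a count, the main fit used no count model, and voom on rounded estimated reads was run only as an alternative. Limma 3.58.1 (R 4.3.3; two-sided, mean-variance trend) was fitted to log2(scaled reads + 1) of genes with a mean of at least 10, which understates changes of low genes, with Benjamini-Hochberg adjustment at 0.05. It was tested only on simulated data with less noise than the spread within groups here, so that test does not show how the fit performs at the real spread. Reads carry no molecular identifiers, so depth covers counting error only.

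All 10 ligand genes are named. Of each other list, those with an unadjusted p under 0.05 or else the 2 with the highest mean could be named, with further genes chosen after their values were seen. Some list genes are counted but not reported here by name. The genes and lists were chosen with earlier results of these data known. Alternatives were other pseudocounts, lengths, filters, normalizations, weights, a replicate block, voom and leaving out each library. Python 3.11.15 with pandas 2.3.3 prepared the tables.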

Additional observations from a re-analysis of the deposited data

How the results depend on the processing

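Over the alternatives, 160 of 172 log2 fold changes of the 10 genes kept their direction and their side of the adjusted threshold, as did 236 of 251 for the named pathway genes (8 and 15 passed the threshold only in the alternative, 4 and 0 changed direction). Of the 10 genes, 0 passed an adjusted p of 0.05 with all libraries, against 1 on the deposited TPM + 1, with the exonic length and with quantile normalization, 4 with array weights, and 0 to 1 with 1 library left out (1 without BrafYAP replicate 6). At an unadjusted p, the 2 higher genes became 1 without the trend and 1 with the replicate block, and 1 to 3 with 1 library left out (1 without YAP replicate 1 or 3 or BrafYAP replicate 1 or 2). The 5 lower genes became 3 on the deposited TPM + 1, 2 on the deposited TPM + 0.1 (6 of the 10 genes passed that filter in both), 3 with no filter, 3 without the trend, 2 with array weights and 2 to 4 with 1 library left out (2 without YAP replicate 1 or 2 or BrafYAP replicate 2 or 6). Shares of all genes at an unadjusted p were taken only with all libraries (9.68% higher, 10.5% lower) and without BrafYAP replicate 6 (9.43%, 11.5%). Counts in the other settings therefore have no share beside them and only describe. With array weights 27.6% of all genes passed even the adjusted threshold. Ligand genes with non-overlapping groups numbered 4 to 9 with 1 library left out (9 without YAP replicate 3), against 4, while the share of all genes was 34.8 to 46.7% against 28.7%. Pdcd1lg2 changed direction to 0.59 with array weights and ranged from -0.89 to 0.083 with 1 library left out, and Cd276 from -0.31 to 1.18. Apart from the values given with each setting's own construction (fewer genes or samples), the cause was not tested.

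Over all genes tested, 0 passed an adjusted p of 0.05, against 45 with scaled reads + 10, 18 on the deposited TPM + 1, 1 with + 0.1, 63 with the exonic length, 16 with no filter, 62 with quantile normalization, 20 without the trend, 4653 with array weights and 0 to 142 with 1 library left out. The count was 0 with voom, which made 0 calls among the 10 genes too, with a minimum mean of 100, with median-ratio rescaling and with the block. Median-ratio rescaling moved the median log2 fold change of all genes from -0.12 to 0.01 and reversed none of the 10 genes. Replicate numbers 1 and 2 occur in both groups, but deviations from the group means correlated at -0.0313 and 0.0472, so the samples share only a number. With the replicate block 0 genes were called, and Cd40 had a log2 fold change of -2.47 (adjusted p = 0.248). The lowest value of any ligand gene was 69.1 scaled reads, and the 3 libraries of each group limit the precision.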
